A study of Homo sapiens with 183 samples.

Results

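The 10 genes described here, of the 19875 gene names in each table, encode parts of the cornified envelope or proteins made together with it in stratified squamous epithelium. They were taken by name: SPRR1A, SPRR1B, SPRR2A, SPRR2D, SPRR3, IVL, TGM1, LY6D, LYPD3 and CSTA. Messenger RNA was measured as TPM, transcripts per 1000000 transcripts, in 183 libraries of human cancer lines. Pancreatic ductal adenocarcinoma (PDAC) is sorted into a classical, gland-like subtype and a basal-like subtype that expresses squamous genes, and the study asked how the transcription factor KLF5 and the paired ATPases RUVBL1 and RUVBL2 act on either identity. The basal-like lines were T3M-4 and BxPC-3, the classical lines were AsPC-1 and SUIT-2, and CFPAC-1 is a further pancreatic line whose subtype the labels do not give.

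The knockout libraries came from lines that stably carried Cas9 and were collected 5 days after delivery of a guide RNA. The control guide sgRosa is directed against the ROSA26 locus, and 34 libraries of 5 lines carried it. A pair of guides was used for each of KLF5, RUVBL1, RUVBL2, SERPINB5 and ROSA26, and the labels do not say which library had which, so these groups mix guides. The guides sgKLF5 (33 libraries, 5 lines), sgRUVBL1 (19 libraries, 4 lines), sgRUVBL2 (13 libraries, 4 lines), sgCDK1 (8 libraries, 4 lines) and sgRpa3 (12 libraries, 4 lines) were used in several lines, while sgCHD4 and sgSERPINB5 (4 libraries each) were used in AsPC-1. CDK1 drives entry into mitosis and RPA3 is a subunit of the single-stranded DNA binding complex of replication. Both knockouts are set beside KLF5 knockout below, and proliferation was not measured in these libraries. CB-6644, an inhibitor of the RUVBL1/2 ATPase, was applied for 24 h to AsPC-1 and T3M-4 cells with a lentiviral empty vector (EV), RUVBL1 A62T or RUVBL2 dF109, the latter being variants chosen for resistance to the compound. There were 3 treated libraries and 1 DMSO library for each vector and line. The parental lines T84 (colorectal), A375 (melanoma), H1048 (tuft-like small-cell lung cancer) and RH30 (alveolar rhabdomyosarcoma) were each measured in 4 libraries with CB-6644 and 4 with DMSO. Experiments 1, 2 and 3 of a line are read from the first digit of the replicate number in the sample titles, a reading that no label spells out (the batch label is 1 throughout). Unless another reference is named, every change below is against the sgRosa or DMSO libraries of the same line and experiment.

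The cornified envelope is an insoluble protein shell assembled under the plasma membrane of squamous cells as they differentiate. Involucrin (IVL) and the small proline-rich proteins (SPRR) are its precursors, and transglutaminase 1 (TGM1) cross-links them. Cystatin A (CSTA) is a cysteine protease inhibitor that is itself built into the envelope. LY6D and LYPD3 are GPI-anchored surface proteins of the Ly6/uPAR family found on squamous epithelia, and LY6D marks keratinocytes. Pancreatic ducts are simple epithelium and do not normally make such an envelope, while tumours of the basal-like subtype often express its genes.

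IVL and the SPRR genes lie in the epidermal differentiation complex on chromosome 1. In GRCh38.p14 (RefSeq), IVL spans chr1:152908546-152911886, SPRR1A chr1:152984081-152985814, SPRR3 chr1:153001749-153003856, SPRR1B chr1:153031203-153032900, SPRR2D chr1:153039732-153041120 and SPRR2A chr1:153056120-153057512. CSTA (chr3:122325248-122341969), TGM1 (chr14:24249114-24263177), LYPD3 (chr19:43460787-43465608) and LY6D lie elsewhere. The 250 bases upstream of the annotated start are given below for 5 genes whose transcripts fell after KLF5 knockout in T3M-4, 5′ to 3′ on the strand of the gene. They cover chr1:152983831-152984080 (+ strand) for SPRR1A, chr1:153030953-153031202 (+) for SPRR1B, chr1:153057513-153057762 (- strand) for SPRR2A, chr1:153001499-153001748 (+) for SPRR3 and chr1:152908296-152908545 (+) for IVL. Capitals mark TGANTCA, the core of the AP-1 type motif, and CCNCNCCC, the CACCC or GC-box type bound by KLF and SP factors, on either strand.
SPRR1A: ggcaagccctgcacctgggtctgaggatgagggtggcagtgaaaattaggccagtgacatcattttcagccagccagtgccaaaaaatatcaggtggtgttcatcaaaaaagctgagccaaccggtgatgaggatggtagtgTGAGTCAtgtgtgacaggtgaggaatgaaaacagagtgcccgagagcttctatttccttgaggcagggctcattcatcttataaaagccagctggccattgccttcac
SPRR1B: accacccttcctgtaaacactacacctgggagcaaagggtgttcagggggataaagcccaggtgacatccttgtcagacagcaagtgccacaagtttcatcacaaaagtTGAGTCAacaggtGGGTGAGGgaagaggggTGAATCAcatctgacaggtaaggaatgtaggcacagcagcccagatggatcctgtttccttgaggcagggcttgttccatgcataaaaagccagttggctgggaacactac
SPRR2A: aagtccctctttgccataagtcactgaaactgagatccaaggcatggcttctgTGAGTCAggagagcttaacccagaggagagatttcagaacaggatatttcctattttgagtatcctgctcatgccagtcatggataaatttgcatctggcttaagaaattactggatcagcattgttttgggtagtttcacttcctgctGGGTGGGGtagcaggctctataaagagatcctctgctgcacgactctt
SPRR3: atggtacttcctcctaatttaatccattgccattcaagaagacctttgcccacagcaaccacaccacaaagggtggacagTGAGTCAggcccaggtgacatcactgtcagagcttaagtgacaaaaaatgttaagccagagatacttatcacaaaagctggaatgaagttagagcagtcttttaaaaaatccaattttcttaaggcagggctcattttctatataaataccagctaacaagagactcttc
IVL: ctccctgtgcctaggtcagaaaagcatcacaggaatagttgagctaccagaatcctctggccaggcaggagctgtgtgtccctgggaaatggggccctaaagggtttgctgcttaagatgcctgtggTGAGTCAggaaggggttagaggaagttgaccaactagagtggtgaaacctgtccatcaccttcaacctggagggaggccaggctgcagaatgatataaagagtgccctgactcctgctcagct
A match to TGANTCA was present in 5 of the 6 members whose upstream sequence was at hand (the above and LYPD3), against 6.57% of 35116 upstream regions of the same length. In SPRR1A the match spans positions -108 to -102, counted back from the start, and in IVL -123 to -117. It lies at -170 to -164 in SPRR3 and at -197 to -191 in SPRR2A, and SPRR1B holds a pair of matches at -141 to -135 and -111 to -105. CCNCNCCC was found in 3 of the 6 (SPRR1B, SPRR2A and LYPD3) against 53.4% of all regions, and TATAAA on the gene strand in 4 of the 6 (IVL, SPRR1A, SPRR2A and SPRR3) against 6.8%. The motifs do not overlap one another in these windows, and a match describes letters and not binding. The similarity of the SPRR genes also bears on their counts: 13.9% of the 31-base words of the SPRR1A transcripts also occur in another gene, as do 15.6% of those of SPRR1B, 29.4% of SPRR2D and 52.7% of SPRR2A, so the division of reads within SPRR1 and within SPRR2 is uncertain. The other 6 members share none.

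Between 11292 and 14024 genes reached 1 TPM in a library, and read depth is unknown because TPM do not keep it. RUVBL1 and RUVBL2 transcripts were lower in every library of their knockouts than in the controls. Outside CFPAC-1 the same held for CDK1 and RPA3 transcripts, by amounts that differed between lines and experiments. KLF5 transcript was lower in every sgKLF5 library in CFPAC-1 (mean 144 against 192 TPM) but not in T3M-4, BxPC-3, AsPC-1 or SUIT-2, and in T3M-4 experiment 2 it was higher (565 against 332 TPM), so mRNA does not check that knockout there. In CFPAC-1, CDK1 transcript was at 194 and 207 TPM in the libraries labelled sgCDK1, at 81.0 and 91.9 TPM in those labelled sgRpa3 and between 206 and 236 TPM in sgRosa, so these 4 libraries are named by their labels, which may have been exchanged. RPA3 transcript does not tell the labels apart, at 27.9 and 32.7 TPM in the libraries labelled sgCDK1 and 30.3 and 31.7 TPM in those labelled sgRpa3, against 33.2 to 45.7 TPM in sgRosa. Replicate 2 of sgKLF5 in T3M-4 experiment 1 stood 5.64 times as far from its group as the median library, replicate 1 of sgRosa in SUIT-2 4.72 times and replicate 4 of sgKLF5 in SUIT-2 3.45 times. Epithelial genes (EPCAM, CDH1, KRT8, KRT18, KRT19) were all above 1 TPM in the controls of the 5 pancreatic lines.

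In control cells more of the envelope genes were expressed in the basal-like lines than elsewhere. All 10 had a mean of at least 1 TPM in T3M-4 (9 control libraries) and in BxPC-3 (6), against 5 in CFPAC-1, 5 in T84, 3 in SUIT-2, 3 in A375, 2 in H1048, 1 in AsPC-1 and none in RH30, where 8 were listed at 0 in every control library. SPRR1B, the most abundant precursor, averaged 481 ± 211 TPM (SD) in T3M-4 and 544 ± 131 in BxPC-3, with ranges of 213 to 803 and 380.2 to 681 TPM around medians of 457 and 589. Its closest relative SPRR1A averaged 160.3 ± 94.2 and 194.0 ± 87.6 TPM. The order of T3M-4 and BxPC-3 is not separated by the spread for either gene, and in CFPAC-1, the next line, SPRR1B averaged 1.58 ± 0.785 TPM (n = 4).

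SPRR2A averaged 109 ± 39.9 TPM in T3M-4 and 259 ± 183 in BxPC-3, and SPRR2D 212 ± 103 and 186 ± 116. Among the remaining lines SPRR2A reached 5.09 ± 0.594 TPM in H1048 (n = 4), and SPRR2D stayed at or below 1.75 ± 0.694 TPM, its mean in A375. SPRR3 had a different order: 284 ± 315 TPM in T3M-4, 22.8 ± 4.25 in CFPAC-1 and 17.5 ± 1.66 in BxPC-3, the latter ranges (16.5 to 25.8 and 15.7 to 19.6) overlapping. IVL averaged 36.0 ± 31.4 TPM in T3M-4, 4.46 ± 1.65 in BxPC-3 and 1.51 ± 0.62 in CFPAC-1, with overlap between T3M-4 and BxPC-3 and between BxPC-3 and CFPAC-1. TGM1 averaged 22.2 ± 15.0 TPM in BxPC-3 and 12.1 ± 3.84 in T3M-4, again overlapping, and 1.67 ± 0.102 or less elsewhere.

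The surface proteins and the protease inhibitor reached further into the other lines. LY6D averaged 1277 ± 545 TPM in T3M-4 (779.8 to 2588), 58.4 ± 12.1 in BxPC-3 (44.7 to 80.2) and 27.4 ± 5.45 in the classical line SUIT-2 (22.0 to 35.0), 3 ranges that did not overlap. It was at 0.958 ± 0.945 TPM in CFPAC-1 and 0.326 ± 0.278 in AsPC-1 (n = 17). CSTA followed the same order at 440.2 ± 103, 137 ± 34.1 and 13.9 ± 4.51 TPM. LYPD3 was the member shared by all pancreatic lines: 41.4 ± 19.2 TPM in T3M-4, 37.9 ± 14.5 in BxPC-3, 24.9 ± 9.73 in AsPC-1, 21.1 ± 3.31 in SUIT-2 and 15.5 ± 2.08 in CFPAC-1. Each range overlapped the next except that of SUIT-2 (18.5 to 25.9 TPM), which lay above that of CFPAC-1 (13.0 to 17.4 TPM). A375, H1048 and T84 followed at 6.56 ± 0.9, 4.14 ± 0.713 and 3.65 ± 0.672 TPM, and RH30 was at 0.0627 ± 0.0495. Levels were not tested between lines, which were in part measured in separate tables, and in bulk RNA fewer expressing cells and less RNA per cell cannot be told apart.

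**Figure D1:**
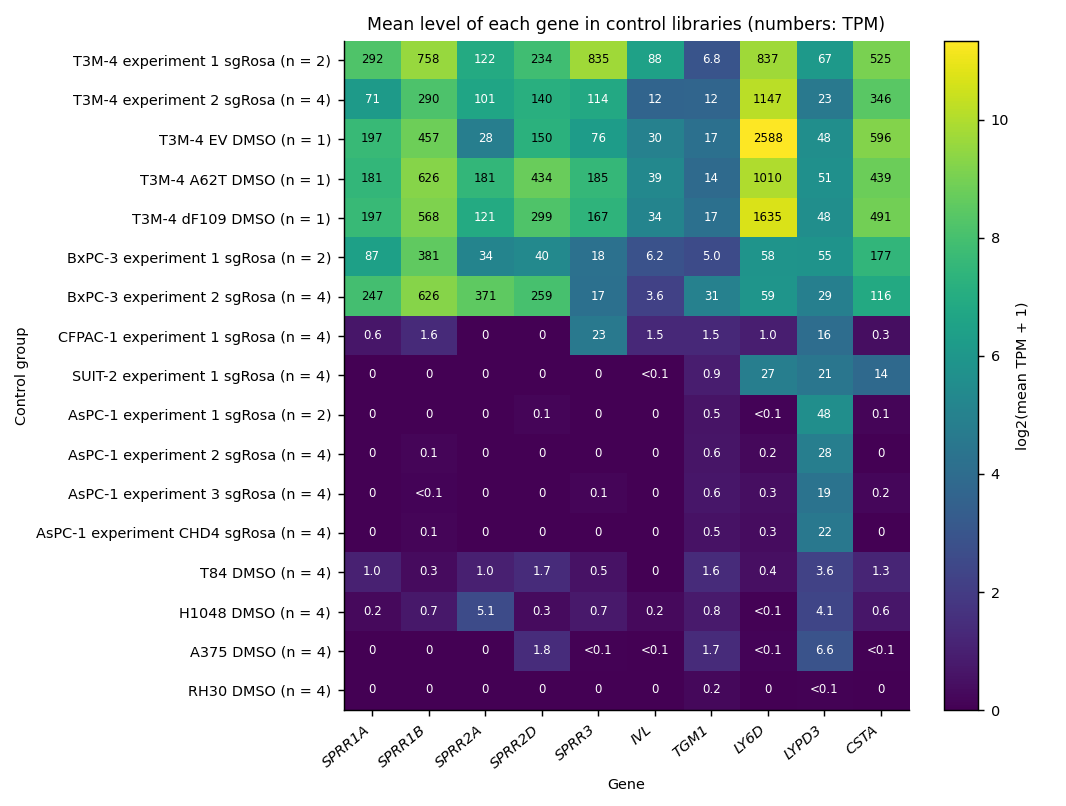
Mean TPM of the 10 genes (columns) in each control group (rows, with the number of libraries), coloured by log2(mean TPM + 1). T3M-4 and BxPC-3 rows hold values for every gene. The other pancreatic lines hold mainly LYPD3, with LY6D and CSTA in SUIT-2 and SPRR3 in CFPAC-1. LYPD3 is highest in A375 and T84 and SPRR2A in H1048, and no gene reaches 1 TPM in RH30.

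Control levels of several members also moved between the experiments of a line, with ranges that did not overlap. In T3M-4 the sgRosa libraries of experiment 1 and experiment 2 averaged 835 and 114 TPM for SPRR3, 87.7 and 11.5 for IVL, 758 and 290 for SPRR1B and 292 and 71.1 for SPRR1A. In BxPC-3 the SPRR1 and SPRR2 genes were higher in experiment 2: SPRR2A averaged 33.7 and 371 TPM, SPRR2D 39.6 and 259, SPRR1A 87.3 and 247 and SPRR1B 381 and 626. TGM1 was higher in experiment 2 of both lines (6.75 and 11.8 TPM in T3M-4, 5.05 and 30.7 in BxPC-3), and SPRR3 was level in BxPC-3 (17.7 and 17.4). The 1 DMSO library of each T3M-4 vector likewise spanned 28.1 (EV), 121 (dF109) and 181 TPM (A62T) for SPRR2A. Within T3M-4 experiment 2, sgRosa replicates 1 and 2 were above replicates 3 and 4 for SPRR1A, SPRR1B, SPRR3 and IVL, and whether these are different guides was not tested. Changes are therefore given within experiments, as log2 fold changes on the log2(TPM + 1) scale with their standard errors and adjusted p-values from limma with the Benjamini-Hochberg adjustment over all tested genes.

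KLF5 knockout lowered most of the envelope genes in T3M-4. In experiment 1, 7 of the 10 fell and none rose, where 2.46% of the 12636 tested genes fell and 3.26% rose. The median log2 fold change was -1.92 over the members and -0.22 over all genes. The shares of all genes depended on sgKLF5 replicate 2, which stood apart. Without it 2459 of 12685 genes fell and 2237 rose. In experiment 2, 8 fell and 1 rose, where 11.2% of genes fell and 23.4% rose, and the medians were -1.12 and 0.1. The 7 that fell in both were the precursors SPRR1A, SPRR1B, SPRR2A, SPRR2D, SPRR3 and IVL and the cross-linking enzyme TGM1.

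SPRR1B was at 803 and 714 TPM in the sgRosa libraries of experiment 1 and at 107, 125, 89.5 and 102 TPM with sgKLF5. In experiment 2 it was at 351, 378, 213 and 218 TPM with sgRosa and 80.1, 77.9, 68.3 and 77.9 with sgKLF5. Neither experiment had overlap, and the log2 fold changes were -2.84 ± 0.24 (SE, adjusted p = 0.000851) and -1.87 ± 0.19 (adjusted p = 6.51e-07). SPRR1A moved with it, from 313 and 271 to 50.5, 49.6, 30.8 and 35.0 TPM in experiment 1 (-2.81 ± 0.26, adjusted p = 0.00129). In experiment 2 SPRR1A went from 82.6, 82.1, 61.0 and 58.8 to 22.0, 18.0, 20.2 and 14.5 TPM (-1.87 ± 0.2, adjusted p = 1.25e-06), also without overlap.

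SPRR3, a precursor of internal stratified epithelia such as the oesophagus, changed most in experiment 1. Its sgRosa libraries were at 867 and 802 TPM and its sgKLF5 libraries at 80.7, 55.3, 69.1 and 83.6 TPM (-3.53 ± 0.19, adjusted p = 0.000152). In experiment 2 the values were 146, 148, 80.0 and 82.3 against 29.3, 34.7, 35.4 and 32.9 TPM (-1.7 ± 0.23, adjusted p = 1.37e-05). The groups were apart in both, and the knockout levels of the experiments were nearer to each other than their controls were.

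The SPRR2 genes fell less. SPRR2A was at 128 and 116 TPM with sgRosa and at 50.2, 63.2, 51.3 and 51.5 TPM with sgKLF5 in experiment 1 (-1.17 ± 0.2, adjusted p = 0.0158), and at 108, 109, 95.0 and 93.2 against 46.8, 49.3, 37.1 and 51.6 TPM in experiment 2 (-1.12 ± 0.12, adjusted p = 7.88e-07). SPRR2D went from 229 and 239 to 82.8, 84.9, 73.9 and 76.7 TPM (-1.55 ± 0.19, adjusted p = 0.00405) and from 160.2, 165, 122 and 113 to 69.7, 68.9, 58.4 and 56.6 TPM (-1.12 ± 0.16, adjusted p = 2.16e-05). No knockout library reached a control for either gene. Under median-of-ratios scaling the call of SPRR2A in experiment 1 was lost (-0.91, adjusted p = 0.103), as it was without sgKLF5 replicate 1 (-1.14) or sgRosa replicate 1 (-1.1) or 2 (-1.24). The call of SPRR2D there was lost without sgRosa replicate 1 (-1.58) or 2 (-1.52).

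IVL, the first envelope precursor laid down, was at 89.1 and 86.2 TPM with sgRosa and 18.7, 9.47, 20.5 and 21.1 TPM with sgKLF5 in experiment 1 (-2.32 ± 0.33, adjusted p = 0.00727), a call lost without either sgRosa library (-2.3 and -2.35). In experiment 2 it was at 14.7, 17.2, 8.19 and 5.94 against 4.89, 6.29, 4.69 and 5.1 TPM (-0.9 ± 0.27, adjusted p = 0.0146), where 1 knockout library lay above the lowest control and the call was lost without sgRosa replicate 1 (-0.76) or 2 (-0.69). TGM1 was nearly lost in experiment 1, going from 7.3 and 6.2 to 0.411, 0.344, 0.817 and 0.766 TPM (-2.3 ± 0.23, adjusted p = 0.00161). In experiment 2 it went from 11.1, 11.6, 13.4 and 11.2 to 1.88, 2.92, 3.96 and 3.24 TPM (-1.71 ± 0.14, adjusted p = 2.16e-08), and neither experiment had overlap.

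Among the surface proteins and the inhibitor, LY6D fell and LYPD3 rose in experiment 2 and neither passed in experiment 1. LY6D was at 894 and 779.8 TPM with sgRosa and 677, 759, 574 and 556 with sgKLF5 in experiment 1, below both controls but not past the threshold (-0.39, adjusted p = 0.18). In experiment 2 it fell from 1154, 1133, 1149.6 and 1151 to 666, 635, 634 and 686 TPM (-0.81 ± 0.1, adjusted p = 8.16e-06), without overlap. LYPD3 rose in experiment 2, from 24.3, 24.9, 22.9 and 19.4 to 58.0, 53.4, 54.1 and 55.2 TPM (1.24 ± 0.08, adjusted p = 2.42e-09). In experiment 1 LYPD3 was at 70.4 and 64.3 against 127, 68.8, 122 and 124 TPM (0.67, adjusted p = 0.184), the low knockout value being that of replicate 2. CSTA overlapped in experiment 1 (0.02, adjusted p = 0.954) and did not pass in experiment 2 (0.21, adjusted p = 0.101). Without replicate 2 of sgKLF5 in experiment 1, which stood apart, the 7 calls held and both LY6D (-0.48, adjusted p = 0.0072) and LYPD3 (0.88, adjusted p = 0.000521) passed. With all libraries of experiment 1 under median-of-ratios scaling, LYPD3 passed (0.92, adjusted p = 0.00643) and LY6D did not (-0.13, adjusted p = 0.817).

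**Figure D2:**
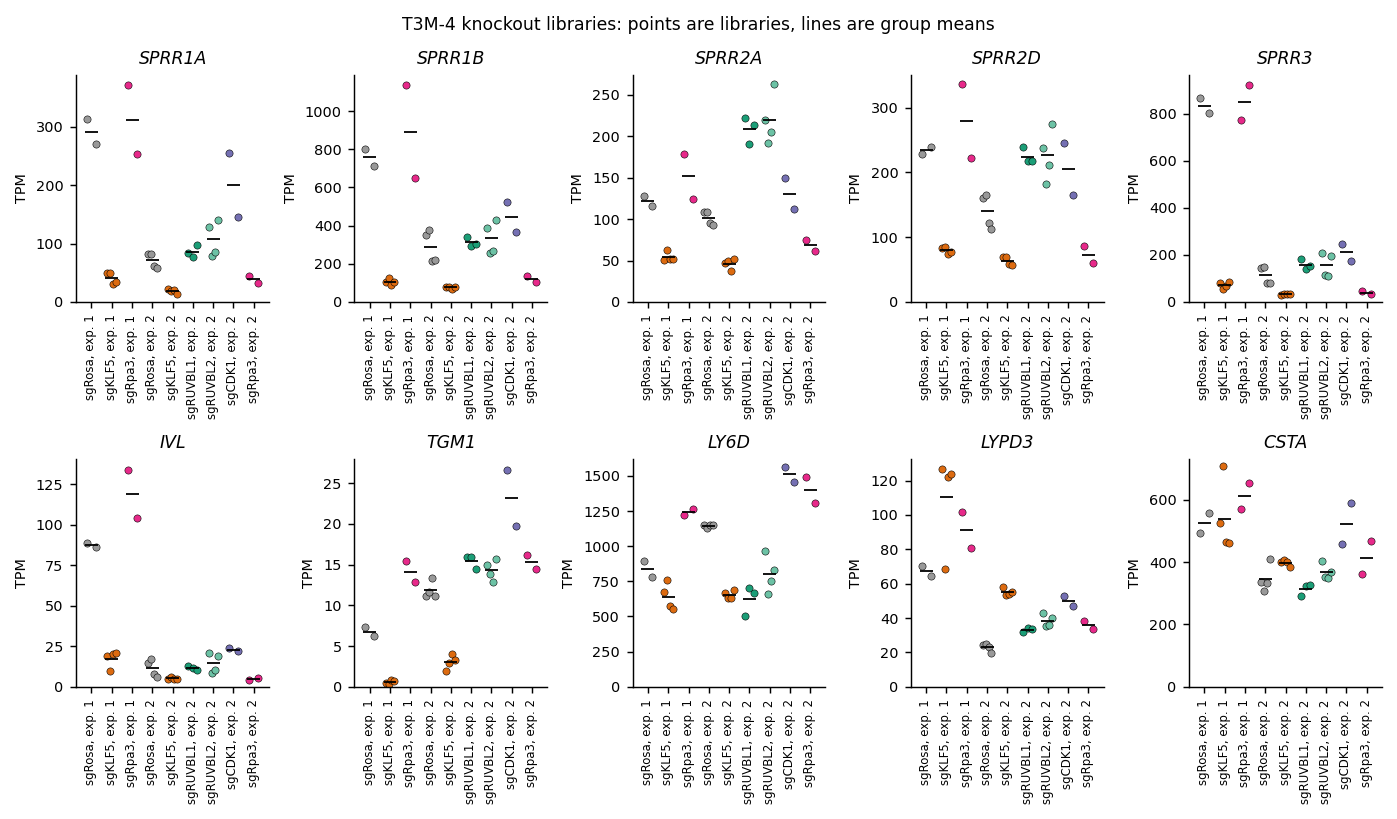
TPM of the 10 genes in T3M-4 knockout libraries, 1 panel a gene; points are libraries, horizontal lines group means, and the x axis gives the guide and experiment. The sgKLF5 points of SPRR1A, SPRR1B, SPRR2A, SPRR2D, SPRR3 and TGM1 lie under the sgRosa points of the same experiment, those of LYPD3 in experiment 2 lie above, and the sgRosa levels of SPRR3 and IVL differ between experiments.

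In BxPC-3 the response to KLF5 knockout differed between experiments. In experiment 1, 7 of the 10 fell and none rose (8.1% of 12398 tested genes fell and 8.09% rose), with a median log2 fold change of -0.94 over the members and -0.02 over all genes. In experiment 2, 3 fell and 3 rose (13.6% and 21.0% of genes), and the medians were 0.01 and 0.05. SPRR1A, SPRR1B and TGM1 fell in both experiments, as they did in T3M-4.

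SPRR1B was at 380.2 and 383 TPM with sgRosa and at 45.9, 29.3, 42.0 and 55.6 TPM with sgKLF5 in experiment 1 (-3.15 ± 0.25, adjusted p = 2.09e-05). In experiment 2 it was at 585, 644, 681 and 594 against 285, 313, 344 and 361 TPM (-0.94 ± 0.07, adjusted p = 2.63e-08). The groups were apart each time. SPRR1A went from 86.4 and 88.3 to 28.4, 17.6, 31.6 and 24.8 TPM (-1.76 ± 0.24, adjusted p = 0.000603) and from 211, 220.4, 271 and 288 to 122, 139, 164 and 143 TPM (-0.79 ± 0.11, adjusted p = 1.66e-05). TGM1 went from 4.94 and 5.16 to 1.07, 0.777, 1.09 and 0.873 TPM (-1.63 ± 0.15, adjusted p = 5.18e-05) and from 21.1, 25.0, 37.1 and 39.7 to 2.51, 5.31, 11.2 and 8.16 TPM (-2.12 ± 0.3, adjusted p = 3.13e-05). Neither gene had overlap in either experiment.

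The SPRR2 genes turned. SPRR2D was at 34.1 and 45.0 TPM with sgRosa and 20.2, 21.0, 23.5 and 29.3 with sgKLF5 in experiment 1 (-0.73 ± 0.19, adjusted p = 0.0295, and -0.71 with adjusted p = 0.067 under median-of-ratios scaling), a call also lost without sgKLF5 replicate 2 (-0.68) or sgRosa replicate 1 (-0.92) or 2 (-0.53). In experiment 2 it was at 226, 243, 281 and 287 against 254, 361, 533 and 486 TPM (0.6 ± 0.16, adjusted p = 0.00717), with overlap through the lowest knockout library. SPRR2A was at 34.9 and 32.5 against 21.3, 22.4, 29.3 and 25.7 TPM (-0.45, adjusted p = 0.0958) and then at 324, 296, 443 and 421 against 346, 480.0, 751 and 649.6 TPM (0.54 ± 0.18, adjusted p = 0.0267), again overlapping. The call of SPRR2A in experiment 2 was lost without sgKLF5 replicate 3 (0.38) or 4 (0.45) and without sgRosa replicate 1 (0.48) or 2 (0.44).

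SPRR3 was at 19.4 and 16.0 against 10.2, 7.72, 12.6 and 10.1 TPM in experiment 1 (-0.76 ± 0.18, adjusted p = 0.0167) and IVL at 5.71 and 6.79 against 2.82, 2.05, 2.67 and 1.78 TPM (-1.13 ± 0.18, adjusted p = 0.00169), both without overlap, though SPRR3 lost its call without sgRosa replicate 1 (-0.63) or 2 (-0.88). In experiment 2 SPRR3 ran from 15.7 to 19.6 TPM with sgRosa and from 15.0 to 22.0 with sgKLF5, and IVL did not pass (0.25, adjusted p = 0.3). LY6D fell in experiment 1 from 60.0 and 55.8 to 10.8, 7.63, 18.2 and 14.7 TPM (-2.15 ± 0.27, adjusted p = 0.00044). In experiment 2 LY6D overlapped, at 44.7, 50.5, 80.2 and 59.1 against 33.8, 32.7, 48.0 and 45.0 TPM (-0.53, adjusted p = 0.077). CSTA rose in experiment 2 from 118, 119, 130.3 and 98.2 to 150.3, 169, 156 and 162 TPM (0.46 ± 0.09, adjusted p = 0.000529), and LYPD3 changed in neither (-0.09, adjusted p = 0.659, and 0.02, adjusted p = 0.902).

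**Figure D3:**
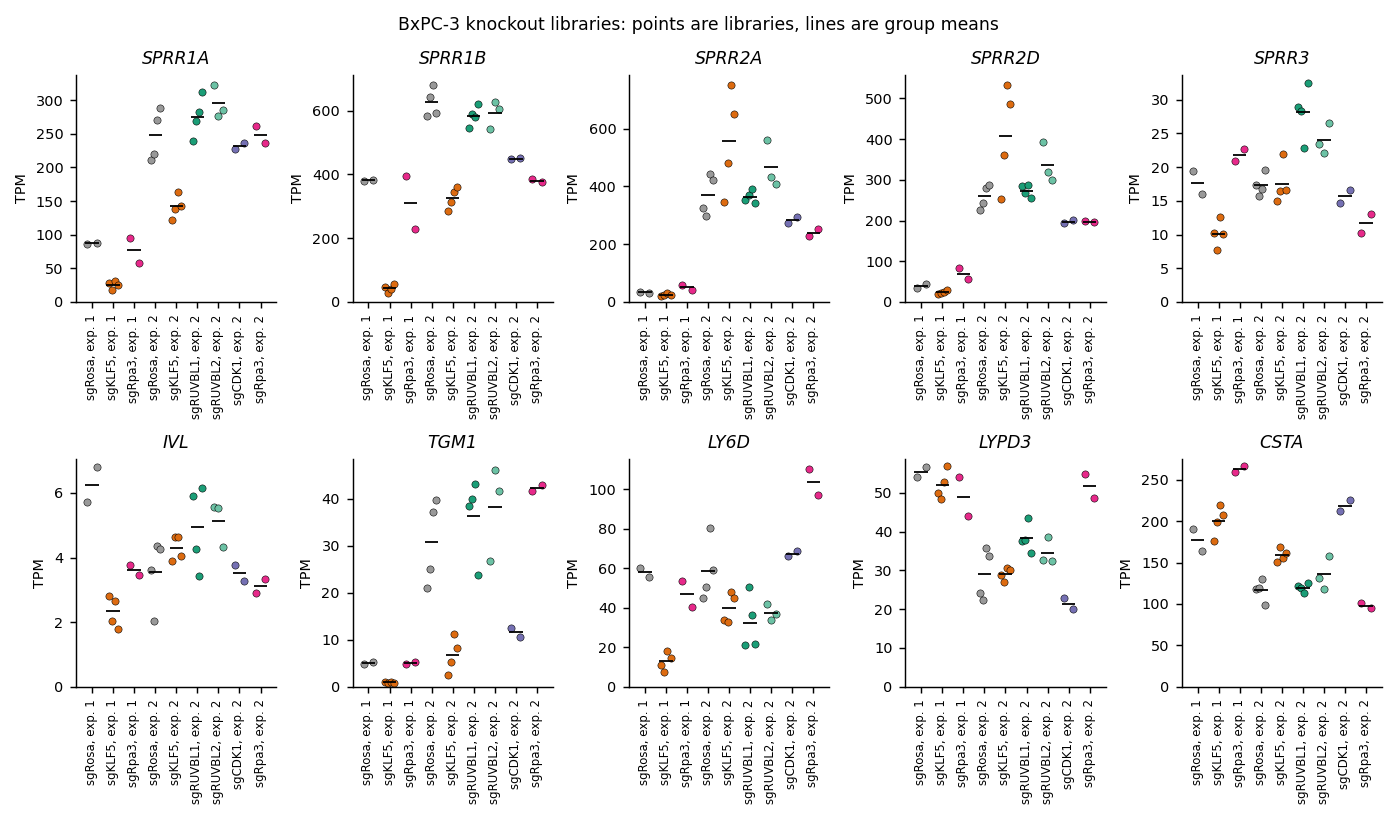
TPM of the 10 genes in BxPC-3 knockout libraries, drawn as for T3M-4. The sgKLF5 points of SPRR1A, SPRR1B and TGM1 lie under sgRosa in both experiments, while those of SPRR2A and SPRR2D lie under sgRosa in experiment 1 and reach above it in experiment 2.

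The difference between experiments was tested in a joint fit of each line. In BxPC-3 the effect of KLF5 knockout was less negative, or more positive, in experiment 2 for 7 of the 10 members, where 16.7% of genes differed in either direction. The largest such differences were 2.2 ± 0.22 for SPRR1B (adjusted p = 2.42e-07), 1.62 ± 0.38 for LY6D (adjusted p = 0.00404), 1.38 ± 0.27 for IVL (adjusted p = 0.000799) and 1.33 ± 0.27 for SPRR2D (adjusted p = 0.00108). In T3M-4, where 17.4% of genes differed, 3 members did: SPRR3 (1.83 ± 0.35, adjusted p = 0.00262), IVL (1.42 ± 0.45, adjusted p = 0.0368) and SPRR1B (0.97 ± 0.32, adjusted p = 0.0446). The SPRR1B difference was lost on median-of-ratios scaling (0.54, adjusted p = 0.316) and without any 1 of 9 of the 14 libraries (0.83 to 1.05). The IVL difference was lost without any 1 of 8 of the 14 (1.17 to 1.46). In BxPC-3 the SPRR3 difference (0.76) was lost on scaling (0.68, adjusted p = 0.0583). The TGM1 effect did not differ past the threshold in either line (0.59, adjusted p = 0.0772, and -0.49, adjusted p = 0.481).

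Outside the basal-like lines few members were high enough to test. In SUIT-2, LY6D fell from 35.0, 26.5, 26.3 and 22.0 TPM with sgRosa to 6.49, 5.2, 8.19 and 11.4 TPM with sgKLF5 (-1.72 ± 0.25, adjusted p = 0.00658), without overlap, and was the 1 member called of 3 tested, where 3.94% of genes were called. Without sgRosa replicate 1 and without sgKLF5 replicate 4, which stood apart, it was -1.6 (adjusted p = 0.00623) and -1.9 (adjusted p = 0.00432). LYPD3 (0.15, adjusted p = 0.722) and CSTA (0.15, adjusted p = 0.78) did not pass. In CFPAC-1 none of 6 tested members was called against 16.2% of genes, and in AsPC-1 the 1 tested member, LYPD3, was not called in experiment 1 or 3, where 25.9% and 27.8% of genes were.

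Genes of the envelope program other than the 10 members were counted in lists chosen with earlier results of these data known. Of 36 further envelope precursors, 20 were tested in T3M-4 experiment 1, of which 16 fell and none rose. In experiment 2, 18 were tested, of which 12 fell and none rose. The shares of all genes given above were 2.46% and 11.2% lower. Without sgKLF5 replicate 2 of experiment 1, where 2459 of 12685 genes were lower, the lists were not counted. Of 8 suprabasal and basal keratins, 5 of 7 tested and 5 of 6 tested fell. Of the other lists, the envelope lipid genes had more falls than rises in both experiments and the rest did not. In experiment 2, 3 of 12 cross-linking and protease control genes fell and 5 rose, 1 of 10 Ly6 and uPAR genes fell and 5 rose. There none of 11 differentiation regulators fell and 3 rose, and 4 of 8 envelope lipid genes fell and 2 rose, where 23.4% of all genes rose. In experiment 1 these lists had 1 of 11 lower and 1 higher, 1 of 9 lower and 3 higher, none of 11 called, and 2 of 8 lower and none higher. KRT4, a keratin of internal stratified epithelia, went from 229 ± 14.9 to 2.16 ± 1.01 TPM in experiment 1 (n = 2 and 4, -6.25 ± 0.34, adjusted p = 0.000152), and CRNN (cornulin) from 10.2 ± 1.57 to 0.381 ± 0.147 TPM in experiment 2 (n = 4 each, -3.02 ± 0.15, adjusted p = 7.9e-11). LYPD6B, of the Ly6/uPAR family, rose in both, to 50.9 ± 3.94 from 13.7 ± 0.632 TPM (1.81 ± 0.19, adjusted p = 0.00207) and to 66.0 ± 3.21 from 22.2 ± 3.63 TPM (1.54 ± 0.15, adjusted p = 2.92e-07). In BxPC-3, 2 precursors of 8 tested fell and 2 rose in experiment 1, and 6 of 12 fell and 3 rose in experiment 2, where PI3 (elafin, a protease inhibitor cross-linked into the envelope) rose to 402 ± 104 from 105 ± 35.4 TPM (1.95 ± 0.24, adjusted p = 6.54e-06).

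Knockout of the ATPases did not lower the precursors in T3M-4. With sgRUVBL1, 1 of the 10 fell and 4 rose, where 14.6% of 13246 genes fell and 45.9% rose, and with sgRUVBL2 1 fell and 4 rose, where 15.2% fell and 39.3% rose. The median over all genes moved up by 0.25 and 0.19, close to the member medians of 0.32 and 0.41, so the values after median-of-ratios scaling are given beside each.

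SPRR2A was at 108, 109, 95.0 and 93.2 TPM with sgRosa, at 222, 190.3 and 214 with sgRUVBL1 and at 219.6, 192, 205 and 263 with sgRUVBL2. All knockout libraries lay above the controls (1.04 ± 0.13, adjusted p = 3.33e-06, and 1.1 ± 0.12, adjusted p = 7.21e-07), and the scaled values were 0.74 (adjusted p = 0.000248) and 0.89 (adjusted p = 2.11e-05). SPRR2D was at 239, 217 and 217 and at 238, 182, 212 and 275 against 160.2, 165, 122 and 113 TPM (0.69 ± 0.17, adjusted p = 0.00203, and 0.69 ± 0.16, adjusted p = 0.00123), also above. Scaling left SPRR2D at 0.48 (adjusted p = 0.0194) with sgRUVBL2 and past the threshold no longer with sgRUVBL1 (0.4, adjusted p = 0.0601).

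LYPD3 rose to 32.0, 34.0 and 33.5 TPM with sgRUVBL1 and to 43.1, 35.1, 36.1 and 39.9 TPM with sgRUVBL2, above the sgRosa range of 19.4 to 24.9 TPM. Its log2 fold changes were 0.52 ± 0.09 (adjusted p = 9.81e-05, scaled 0.24 with adjusted p = 0.0485) and 0.73 ± 0.08 (adjusted p = 1.4e-06, scaled 0.52 with adjusted p = 0.00014). LY6D fell with either guide, to 502, 700.5 and 664 TPM and to 969, 663, 754 and 831 TPM, below controls of 1133 to 1154 TPM (-0.9 ± 0.11, adjusted p = 3.73e-06, and -0.53 ± 0.1, adjusted p = 0.000376). Scaling left LY6D called with both (-1.19, adjusted p = 4.98e-06, and -0.74, adjusted p = 0.000276). SPRR1B overlapped its controls with either guide (0.16, adjusted p = 0.522, and 0.22, adjusted p = 0.338), as did SPRR3 and IVL. The calls of TGM1 with sgRUVBL1 (0.36 ± 0.15, adjusted p = 0.0419) and of SPRR1A with sgRUVBL2 (0.58 ± 0.2, adjusted p = 0.0234) were lost on scaling (0.09, adjusted p = 0.625, and 0.36, adjusted p = 0.161).

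Among non-members in T3M-4, 7 of 11 tested differentiation regulators rose with sgRUVBL1 and 7 of 11 with sgRUVBL2, and 5 and 4 of 6 tested keratins fell, where 45.9% and 39.3% of all genes rose and 14.6% and 15.2% fell. PRDM1, a repressor expressed late in keratinocyte differentiation, rose with sgRUVBL1 to 12.7 ± 1.43 from 2.96 ± 1.15 TPM (n = 3 and 4, 1.83 ± 0.19, adjusted p = 5.51e-07). KRT5, the keratin of the basal layer, fell from 305 ± 36.3 to 64.2 ± 14.3 TPM (-2.25 ± 0.13, adjusted p = 1.29e-09) and with sgRUVBL2 to 75.7 ± 8.65 TPM (-2.0 ± 0.12, adjusted p = 1.89e-09).

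In BxPC-3, 1 member fell and 2 rose with sgRUVBL1 (7.67% and 8.29% of 12380 genes), and none fell and 1 rose with sgRUVBL2 (5.48% and 4.27%). SPRR3 rose with either guide, to 28.9, 28.4, 22.9 and 32.5 TPM and to 23.4, 22.1 and 26.5 TPM from 17.4, 15.7, 16.8 and 19.6 TPM, without overlap (0.66 ± 0.12, adjusted p = 0.00182, and 0.44 ± 0.13, adjusted p = 0.0436), the sgRUVBL2 call being lost without any 1 of 5 of the 7 libraries (0.37 to 0.46). LY6D was at 21.2, 50.5, 36.5 and 21.5 TPM with sgRUVBL1 against 44.7, 50.5, 80.2 and 59.1 TPM (-0.89 ± 0.22, adjusted p = 0.0122), the ranges touching and the call lost without sgRUVBL1 replicate 1 or 2 (-0.73 each), and at 41.9, 33.9 and 36.6 TPM with sgRUVBL2 (-0.6, adjusted p = 0.117). LYPD3 with sgRUVBL1 was called with overlap (0.41 ± 0.13, adjusted p = 0.0327) and lost its call without any 1 of 5 of the 8 libraries (0.3 to 0.42). In CFPAC-1 none of 6 members was called with either guide, where 43.8% of genes were called with sgRUVBL1 and 12.1% with sgRUVBL2. In AsPC-1, LYPD3 was at 18.6, 19.1, 18.1 and 19.5 TPM with sgRosa and 12.2, 15.5, 14.8 and 14.2 TPM with sgRUVBL1 in experiment 3 (-0.39 ± 0.12, adjusted p = 0.0103, 51.9% of genes called). It overlapped with sgRUVBL1 in experiment 2 (0.06, adjusted p = 0.551, 55.8% of genes called) and with sgRUVBL2 in experiment 3 (-0.17, adjusted p = 0.266, 43.2%).

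The 2 ATPase knockouts were also set against each other. No member was called in T3M-4, BxPC-3, CFPAC-1 or AsPC-1 by limma, where 0.0226%, 0.0323% and 0.0235% of genes were called in the first 3. In AsPC-1 LYPD3 was the 1 member tested, and of 12224 genes 187 were lower and 267 higher with sgRUVBL2 than with sgRUVBL1. An unadjusted p under 0.05 was found for 1491, 1719, 1875 and 2444 genes in T3M-4, BxPC-3, CFPAC-1 and AsPC-1.

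On the unscaled values CDK1 knockout raised most members in T3M-4. In 2 sgCDK1 libraries 7 of the 10 rose and none fell, where 13.0% of genes rose and 3.85% fell, with a member median of 0.77 and an all-gene median of 0.15. SPRR1A was at 256 and 145 TPM against 58.8 to 82.6 TPM in sgRosa (1.44 ± 0.25, adjusted p = 0.00127), LYPD3 at 52.6 and 46.9 against 19.4 to 24.9 TPM (1.09 ± 0.1, adjusted p = 1.01e-05) and TGM1 at 26.6 and 19.7 against 11.1 to 13.4 TPM (0.9 ± 0.17, adjusted p = 0.00186). These 3 calls held under median-of-ratios scaling and those of SPRR3, IVL, LY6D and CSTA did not, and that of TGM1 was lost without sgCDK1 replicate 1 (0.69). The calls of SPRR3, IVL and LY6D were each lost without any 1 of 4 of the 6 libraries, and that of CSTA without sgCDK1 replicate 2 (0.41). SPRR1B, at 525 and 365 TPM against 213 to 378, did not pass (0.64, adjusted p = 0.0697).

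In the same experiment the sgRpa3 libraries moved the other way. SPRR1A, SPRR1B, SPRR2A, SPRR2D, SPRR3 and IVL fell and LYPD3 rose, where 6.2% of genes fell and 18.4% rose. The IVL call (-1.05) was lost without sgRosa replicate 1 (-0.9) or 2 (-0.83) or sgRpa3 replicate 1 (-0.9) or 2 (-1.19). Those of SPRR1A (-0.62), SPRR2A (-0.43) and SPRR2D (-0.67) were lost without sgRpa3 replicate 2, and that of SPRR1A also without sgRosa replicate 1 (-0.77). SPRR3 was at 44.6 and 32.9 TPM against 146, 148, 80.0 and 82.3 TPM (-1.49 ± 0.28, adjusted p = 0.00118) and SPRR1B at 134 and 102 against 351, 378, 213 and 218 TPM (-1.25 ± 0.24, adjusted p = 0.00128), both below every control. TGM1, which had fallen with sgKLF5, was at 16.2 and 14.5 TPM, above its controls but not past the threshold (0.35, adjusted p = 0.123). In experiment 1 no gene passed in either direction with sgRpa3 (0.0% and 0.0%), and SPRR1B was at 1138 and 648 TPM against 803 and 714. That comparison had 2 libraries in each group, in a fit that also held the sgKLF5 replicate that stood apart. RPA3 transcript itself averaged 23.8 against 64.3 TPM there, and 72.4 against 92.3 TPM in experiment 2. The lack of calls in experiment 1 therefore cannot be read as no change. No member's sgRpa3 effect differed between the experiments past the threshold, where 0.107% of genes did.

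Against these knockouts of the same experiment rather than sgRosa, KLF5 knockout in T3M-4 lowered 9 members and raised none relative to sgCDK1 (18.5% of genes called), and lowered 4 and raised 1 relative to sgRpa3 (26.3%). In that comparison with sgRpa3 TGM1 (-2.06, adjusted p = 5.84e-08), LY6D (-1.09), SPRR1A (-1.02, and -0.79 without a call when sgRpa3 replicate 1 was left out) and SPRR2A (-0.56, and -0.42 likewise) were lower and LYPD3 higher (0.61). SPRR1B (-0.62, adjusted p = 0.0634), SPRR2D (-0.19, adjusted p = 0.524), SPRR3 (-0.21, adjusted p = 0.632), IVL (0.14, adjusted p = 0.798) and CSTA (-0.05, adjusted p = 0.819) did not pass. In experiment 1 it lowered 8 and raised none relative to sgRpa3 (3.66%), TGM1 by -3.26 ± 0.23 (adjusted p = 0.000478) and SPRR3 by -3.55 ± 0.19 (adjusted p = 0.000127). Without sgKLF5 replicate 2, 1445 of 12685 genes were lower and 1785 higher, and CSTA (-0.34) and LYPD3 (0.46) also passed. With all libraries, the calls of SPRR2A (-1.21, adjusted p = 0.0719) and LY6D (-0.72, adjusted p = 0.262) were lost on median-of-ratios scaling. In BxPC-3 it lowered 8 and raised none relative to sgRpa3 in experiment 1 (18.4%), and in experiment 2 lowered 5 and raised 4 relative to sgRpa3 (50.8%) and lowered 4 and raised 3 relative to sgCDK1 (27.1%). Relative to sgCDK1 the LYPD3 call (0.42) was lost without any 1 of the 6 libraries and that of LY6D (-0.76) without any 1 of 5. Those of SPRR2A (0.91) and CSTA (-0.45) were lost without sgCDK1 replicate 1 and 2, respectively. Relative to sgRpa3 the SPRR1B call of experiment 2 (-0.23) was lost without any 1 of 4 of the 6, and that of SPRR3 (0.55) without sgRpa3 replicate 1. The CSTA call of experiment 1 (-0.39) was lost without any 1 of 3 of the 6. In CFPAC-1, 2 of 6 tested members were lower and none higher relative to the libraries labelled sgCDK1, where 3126 of 12748 genes were lower and 838 higher. Relative to those labelled sgRpa3, 4 of 6 were lower and none higher, where 3810 genes were lower and 1115 higher. The calls relative to sgCDK1 were lost without any 1 of 4 (SPRR1B, -1.29) or any 1 (IVL, -0.73) of the 5 libraries. These comparisons share their sgKLF5 libraries with those against sgRosa.

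In BxPC-3 experiment 2, sgCDK1 lowered 2 members and raised 1 (2.12% and 3.71% of genes). TGM1 was at 12.6 and 10.6 against 21.1 to 39.7 TPM (-1.29 ± 0.37, adjusted p = 0.0458, a call lost without any 1 of 5 of these 6 libraries), SPRR1B at 447 and 450.3 against 585 to 681 TPM (-0.48 ± 0.09, adjusted p = 0.00306) and CSTA at 212 and 225 against 98.2 to 130.3 TPM (0.91 ± 0.11, adjusted p = 4.5e-05). With sgRpa3 in experiment 2, 2 fell and 2 rose (11.6% and 9.12%): SPRR1B was at 385 and 376 TPM (-0.71 ± 0.09, adjusted p = 0.000102), SPRR3 at 10.2 and 13.1 (-0.54 ± 0.15, adjusted p = 0.0165), LYPD3 at 54.9 and 48.6 (0.83 ± 0.15, adjusted p = 0.00116) and LY6D at 110.0 and 97.2 TPM (0.84 ± 0.28, adjusted p = 0.0369). The LY6D call was lost on median-of-ratios scaling (0.81, adjusted p = 0.0554) and without sgRosa replicate 1 (0.73) or 2 (0.78) or sgRpa3 replicate 1 (0.75) or 2 (0.93). The SPRR3 call was lost without sgRpa3 replicate 1 (-0.38). In experiment 1 none was called with sgRpa3, where 0.0161% of genes fell and 0.29% rose. The sgRpa3 effect differed between these experiments for 5 members (7.77% of genes), most for SPRR2D (-1.18 ± 0.31, adjusted p = 0.0249) and SPRR2A (-1.16 ± 0.32, adjusted p = 0.0311). Both were lost without any 1 of 4 and of 5 of the 10 libraries (-0.91 to -1.19 and -0.95 to -1.24).

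In the CFPAC-1 libraries labelled sgRpa3, LYPD3 was at 32.2 and 31.0 against 17.4, 13.0, 14.6 and 17.1 TPM (0.99 ± 0.19, adjusted p = 0.00401) and IVL at 2.31 and 4.58 against 1.06, 0.975, 2.3 and 1.71 TPM (0.81 ± 0.23, adjusted p = 0.0359), 2 calls of 6 where 11.6% of genes were called. The IVL call was lost without replicate 2 of those libraries (0.43) and without sgRosa replicate 1 (0.72) or 2 (0.7), and the LYPD3 call without either of those libraries (0.96 and 1.02). No gene was called in the libraries labelled sgCDK1 (0.0%). In AsPC-1, LYPD3 rose with sgCDK1 to 30.8 and 24.0 TPM (0.51 ± 0.14, adjusted p = 0.0209, 16.7% of genes called, and 0.33 without a call when replicate 1 was left out) and was not called with sgRpa3 (0.16, adjusted p = 0.796, 0.654%).

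**Figure D4:**
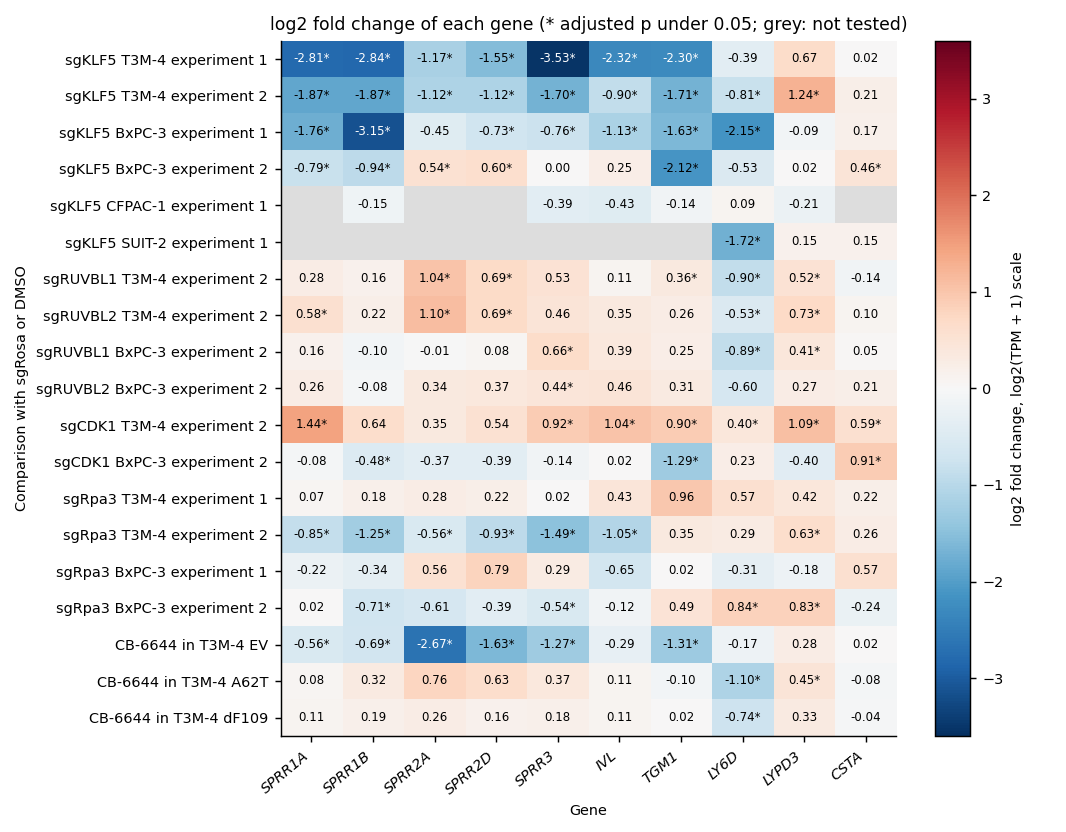
Log2 fold changes on the log2(TPM + 1) scale for the 10 genes (columns) in the comparisons with sgRosa or DMSO of T3M-4 and BxPC-3 and the sgKLF5 comparisons of CFPAC-1 and SUIT-2 (rows); an asterisk marks an adjusted p under 0.05 and grey a gene not tested. SPRR1A, SPRR1B and TGM1 are lower and marked in the 4 sgKLF5 rows of T3M-4 and BxPC-3, and LYPD3 is not lower and marked in any of them.

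CHD4 is the ATPase of the NuRD remodelling complex, and its knockout was made in the classical line AsPC-1. TGM1 was at 0.436, 0.543, 0.405 and 0.531 TPM with sgRosa and 2.06, 2.26, 2.52 and 2.25 TPM with sgCHD4 (1.15 ± 0.11, adjusted p = 4.61e-06), and LY6D at 0.267, 0.0, 0.742 and 0.227 against 2.6, 2.57, 2.36 and 2.97 TPM (1.5 ± 0.16, adjusted p = 1.31e-05). Both were without overlap and at low level, and were the 2 called of 3 tested, where 50.0% of 11939 genes were called; LYPD3 overlapped (-0.08, adjusted p = 0.357). Of the further envelope genes, 4 of 6 tested precursors, 5 of 7 cross-linking and protease control genes and 5 of 5 Ly6 and uPAR genes rose, while 1 precursor, 2 cross-linking and protease control genes and 2 of 2 keratins fell. Of the regulators 3 of 7 rose and 2 fell, and 1 of 3 envelope lipid genes fell. LYPD2 rose to 6.65 ± 2.27 from 0.298 ± 0.396 TPM (n = 4 each, 2.54 ± 0.26, adjusted p = 8.8e-06). CHD4 transcript itself overlapped between these groups (mean 82.7 against 66.8 TPM). With sgSERPINB5, LYPD3 was the 1 member tested and was not called, as 0.0343% of genes were.

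CB-6644 lowered SPRR1A, SPRR1B, SPRR2A, SPRR2D, SPRR3 and TGM1 in T3M-4 with the empty vector when set against the 3 DMSO libraries. Of these, SPRR2A, SPRR3 and TGM1 also passed against the EV DMSO library alone. IVL did not pass (-0.29, adjusted p = 0.108). Against the 3 DMSO libraries together, 6 of the 10 fell with EV and none rose, where 15.2% of 13402 genes fell and 19.1% rose, with a member median of -0.63 and an all-gene median of 0.04. With A62T 1 fell and 1 rose (4.6% and 45.4% of genes) and with dF109 1 fell and none rose (3.34% and 34.3%), with all-gene medians of 0.33 and 0.29.

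TGM1 was at 17.2 (EV), 14.0 (A62T) and 17.3 TPM (dF109) in DMSO and at 7.99, 4.87 and 5.16 TPM in CB-6644 with EV (-1.31 ± 0.15, adjusted p = 0.000106). With A62T it was at 16.2, 14.8 and 13.8 TPM and with dF109 at 16.4, 16.5 and 16.1 TPM, between 13.8 and 16.5 TPM where DMSO spanned 14.0 to 17.3. Neither was called, although TGM1 with A62T passed under median-of-ratios scaling (-0.47, adjusted p = 0.045). SPRR3 was at 75.5, 185 and 167 TPM in the EV, A62T and dF109 DMSO libraries and at 51.8, 52.2 and 59.8 TPM in CB-6644 with EV (-1.27 ± 0.25, adjusted p = 0.00271), below all 3.

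SPRR2A shows how far the DMSO libraries of the vectors lay apart: 28.1 TPM with EV, 181 with A62T and 121 with dF109. In CB-6644 with EV it was at 16.5, 14.9 and 7.98 TPM, below each (-2.67 ± 0.51, adjusted p = 0.00229), and against the EV DMSO library alone the log2 fold change was -1.1 (adjusted p = 0.0199). TGM1 (-1.4, adjusted p = 0.00122) and SPRR3 (-0.46, adjusted p = 0.00517) also remained called against that library alone. SPRR1A (169, 136 and 94.3 against 197, 181 and 197 TPM), SPRR1B (466, 372 and 222 against 457, 626 and 568 TPM) and SPRR2D (144, 94.2 and 46.8 against 149.8, 434 and 299 TPM) were called against the 3 DMSO libraries (-0.56, adjusted p = 0.0224, -0.69, adjusted p = 0.0258, and -1.63, adjusted p = 0.00763) and not against the EV library alone (-0.6, adjusted p = 0.0981, -0.44, adjusted p = 0.303, and -0.79, adjusted p = 0.203). Without EV CB-6644 replicate 3 the values of SPRR1A and SPRR1B against the 3 DMSO libraries were -0.33 and -0.39. Their calls were lost without the dF109 DMSO library (-0.54 and -0.66) and that of SPRR1B also without the A62T one (-0.59). A fit with 1 DMSO library takes that library to vary like the other groups.

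Within CB-6644, A62T cells were higher than EV cells for 7 members and lower for 1 (41.4% of genes higher, 9.21% lower), and dF109 cells higher for 7 and lower for none (29.8% and 4.86%). The 7 were the 6 precursors and TGM1 in either case, for example SPRR2A at 147, 134 and 155 TPM with A62T (3.43 ± 0.51, adjusted p = 0.000644) and 104, 104 and 99.4 TPM with dF109 (2.93 ± 0.51, adjusted p = 0.00374). The IVL differences (0.4 with either variant) were lost on leaving out EV CB-6644 replicate 3 (0.28 each), among other libraries. Relative to the all-gene medians of 0.27 and 0.24, under median-of-ratios scaling, the calls of IVL (0.12, adjusted p = 0.252, and 0.16, adjusted p = 0.183) and SPRR1A (0.35, adjusted p = 0.0752, and 0.43, adjusted p = 0.052) were lost with A62T and dF109, leaving 5 of the 7. Since the vectors already differed in DMSO for SPRR2A, SPRR2D and SPRR3, with 1 library each, the vector and the response to the compound cannot be told apart for these in this comparison.

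LY6D was lower in CB-6644 with the variants, at 841, 685 and 755 TPM with A62T (DMSO 1010.1) and 986, 991 and 931 TPM with dF109 (DMSO 1635), against 2588 TPM in EV DMSO (-1.1 ± 0.25, adjusted p = 0.00825, and -0.74 ± 0.25, adjusted p = 0.0361). With EV it was at 1570.0, 1498 and 1271 TPM, between the DMSO values of the vectors, and passed only against the EV DMSO library alone (-0.84, adjusted p = 0.00144). Without the EV DMSO library the dF109 value was -0.41 and no longer passed, and against its own DMSO library dF109 passed (-0.75, adjusted p = 0.00309) and A62T did not (-0.41, adjusted p = 0.128). LYPD3 with A62T was called (0.45 ± 0.14, adjusted p = 0.0259) and, relative to the general shift, was at 0.06 (adjusted p = 0.668). IVL and CSTA did not pass with any vector on the unscaled values.

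**Figure D5:**
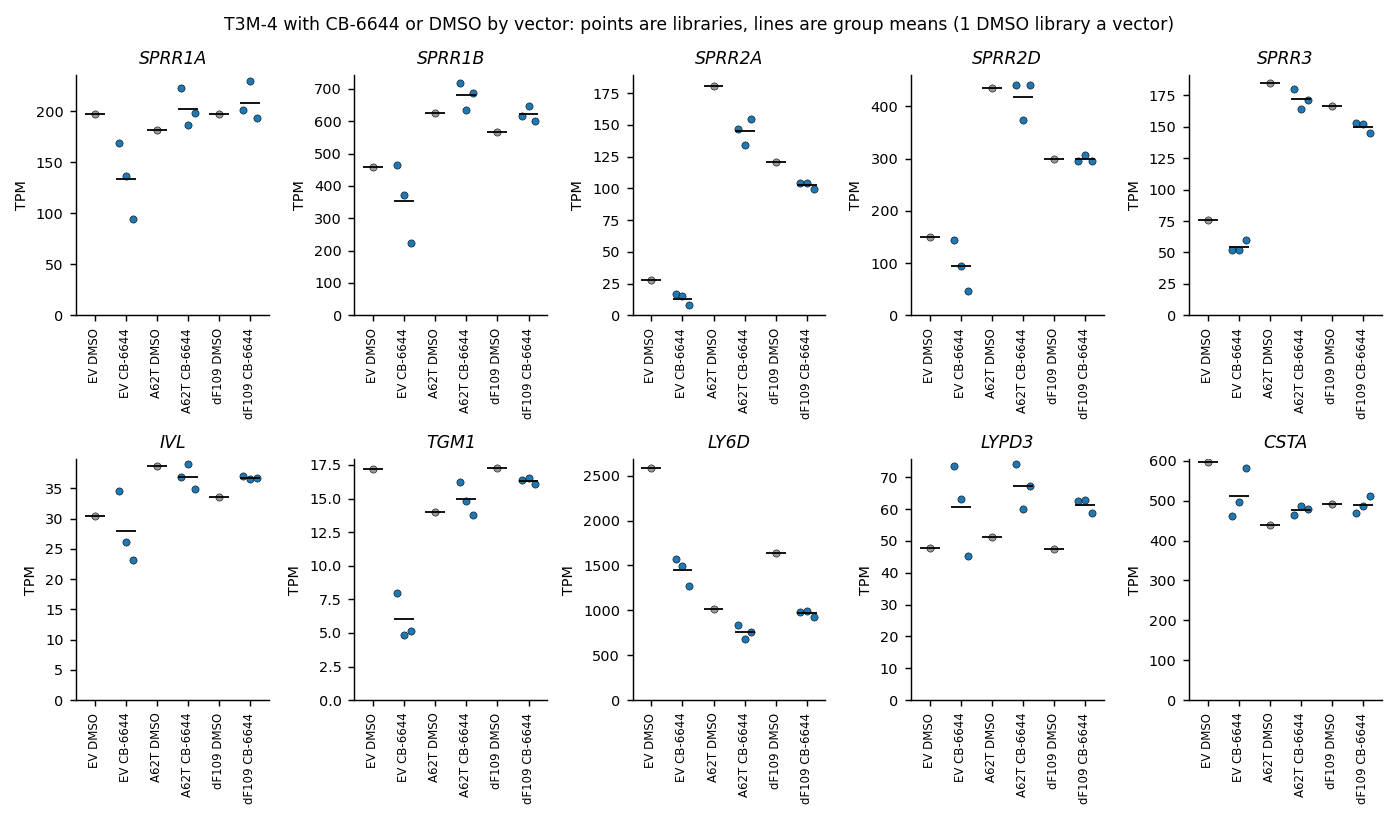
TPM of the 10 genes in T3M-4 with EV, RUVBL1 A62T or RUVBL2 dF109 in DMSO (1 library each) or CB-6644 (3 each); points are libraries and lines group means. With EV the CB-6644 points of TGM1, SPRR2A and SPRR3 lie below every DMSO point, while the variants' points of TGM1 stay at 13.8 to 16.5 TPM.

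Elsewhere CB-6644 reached few members. In AsPC-1, LYPD3 was not called with EV, A62T or dF109 (0.06, 0.07 and 0.07, with 64.4%, 12.7% and 33.4% of genes called). In T84, TGM1 was at 1.3, 1.83, 1.68 and 1.75 TPM in DMSO and 0.89, 0.536, 0.93 and 0.908 TPM in CB-6644 (-0.54 ± 0.11, adjusted p = 0.00051), and SPRR2D fell with overlap (-0.48 ± 0.16, adjusted p = 0.0146), 2 of 4 tested where 71.4% of genes were called. In A375, LYPD3 rose to 20.2, 21.5, 20.4 and 18.9 TPM from 7.59, 6.39, 6.83 and 5.44 TPM (1.5 ± 0.08, adjusted p = 1.26e-08), TGM1 fell to 0.581, 0.607, 0.891 and 0.819 TPM from 1.66, 1.53, 1.72 and 1.77 TPM (-0.63 ± 0.09, adjusted p = 4.84e-05), and SPRR2D was called with overlap (0.52 ± 0.18, adjusted p = 0.0171), where 81.1% of genes were called. In H1048, LYPD3 fell from 4.1, 5.16, 3.72 and 3.59 to 1.76, 2.99, 2.44 and 3.23 TPM (-0.52 ± 0.14, adjusted p = 0.004) and SPRR2A from 4.86, 4.88, 5.96 and 4.64 to 2.71, 1.43, 0.398 and 1.26 TPM (-1.39 ± 0.22, adjusted p = 0.000103), both of 2 tested, where 77.9% of genes were called. No member could be tested in RH30. With most genes called in these lines, a call there says little about the members.

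The members did not vary as 1 group. Across the 27 sgRosa and knockout libraries of T3M-4, on the log2(TPM + 1) scale, SPRR1A and SPRR1B had a Pearson r of 0.97, SPRR3 and IVL 0.92, and SPRR2A and SPRR2D 0.93, while TGM1 and IVL had 0.12 and TGM1 and LYPD3 -0.64. Across the 27 of BxPC-3, SPRR2A and SPRR2D had 0.99, SPRR1A and SPRR1B 0.94, SPRR1A and TGM1 0.92, and TGM1 and CSTA -0.76. The points share experiments and control libraries, and the similar sequences within SPRR1 and SPRR2 can pass reads between genes. Over the 59 group means of all lines (16717 genes compared), the genes with the most similar pattern were KRT6A for SPRR1B (r = 0.994) and SPRR1A (0.986), SPRR2E for SPRR2A (0.978), MAGEA1 for SPRR2D (0.979), STEAP4 for SPRR3 (0.946), KRT78 for IVL (0.952), IGFL1 and MARCO for TGM1 (0.954 each), TMEM40 for CSTA (0.98) and HOTS for LY6D (0.964). LYPD3 had no gene above 0.858 (CEBPB). These are descriptions over groups that are dominated by the differences between lines.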

How the data were processed

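Poly-A RNA was sequenced from 183 libraries of human cancer cell lines. The authors pseudo-aligned single-end reads to hg38 (kallisto), filtered out transcripts of low abundance (the limit is not given in the sources used here) and summarised the rest to genes (tximport), without pooling libraries. The deposited values are TPM in 8 tables, in which each library adds up to 1000000. TPM keep no read counts, so depth is unknown, no count test was run, and precision rests on the number of libraries. Groups came from the sample labels, and the experiment was read from the first digit of the replicate number in the titles. The study describes knockout libraries as biological replicates, with a pair of guides for most targets. The labels name neither cultures nor guides, so p-values measure the spread between these libraries, guides included.

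TPM were transformed to log2(TPM + 1), a pseudocount of 1. A limma 3.58.1 model (R 4.3.3, empirical Bayes moderation with a trend) took all libraries of a line and experiment, keeping genes that averaged 1 TPM or more over the fitted libraries. Two-sided p-values were adjusted by Benjamini-Hochberg over all genes of a fit, with a threshold of 0.05. CB-6644 groups of AsPC-1 and T3M-4 were compared with the 3 DMSO libraries of the line together. Effects in separate experiments were compared in a joint fit with an interaction term. The fits were tested on simulated data.

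The members and the gene lists were chosen with earlier results of these data known. Every member is described. From the lists, at most the gene with the largest called rise and the one with the largest called fall in a comparison, with no overlap between groups, were open to naming, and of the genes most like each member in pattern (Pearson r over group means) the first is given. Alternatives were median-of-ratios scaling, a pseudocount of 0.1, dropping the filter or raising it to 5 TPM, only the groups of the contrast, sums over the SPRR1 and SPRR2 genes, the replicate number as a block, the DMSO library of the same vector alone, and leaving out each library. Upstream sequences and coordinates are from RefSeq (GRCh38.p14), and upstream sequence is given or searched for 6 of the 10 members. In the check of pairing, replicate numbers of sgRUVBL1 and sgRUVBL2 in BxPC-3 experiment 2 deviated together (correlations of 0.216 to 0.46 over 3 pairs), and a block there changed no member's call.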

Additional observations from a re-analysis of the deposited data

Results flagged for a closer look

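In groups of 4 to 10 libraries, 4 of the 122 combinations of member and group held a library far from the others by Dixon's criterion, and chance gives about 1 in 20. Replicate 2 of sgKLF5 in T3M-4 experiment 1 accounts for 3 of them, with SPRR2A at 63.2 TPM (others 50.2 to 51.5), IVL at 9.47 TPM (others 18.7 to 21.1) and LYPD3 at 68.8 TPM (others 122 to 127). The fourth is SPRR3 in replicate 2 of sgRosa in CFPAC-1, at 16.5 TPM against 24.5 to 25.8.

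Effects of the same knockout differed between experiments of a line in joint fits with an interaction term (experiment 2 minus experiment 1, log2). For KLF5 in T3M-4 the differences were 0.97 for SPRR1B, 1.83 for SPRR3 and 1.42 for IVL. For KLF5 in BxPC-3 they were 0.97 for SPRR1A, 2.2 for SPRR1B, 0.99 for SPRR2A, 1.33 for SPRR2D, 0.76 for SPRR3, 1.38 for IVL and 1.62 for LY6D. For sgRpa3 in BxPC-3 they were -1.16 for SPRR2A, -1.18 for SPRR2D, -0.84 for SPRR3, 1.01 for LYPD3 and -0.81 for CSTA. The SPRR3 difference there was lost without any 1 of 9 of the 10 libraries (-0.67 to -1.0). For sgRUVBL1 in AsPC-1 the difference of LYPD3, experiment 3 minus experiment 2, was -0.45, and it was lost without any 1 of 9 of the 16 libraries.

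In other cases every library of a knockout or treatment lay above its controls in 1 line and below them in another. The difference between lines was not tested. LYPD3 did so with sgRUVBL1 (0.52 in T3M-4, -0.39 in AsPC-1 experiment 3) and with CB-6644 (1.5 in A375, -0.52 in H1048). With sgCDK1 the log2 fold changes were 1.14 in the CFPAC-1 libraries with that label and -0.48 in BxPC-3 for SPRR1B, 0.35 in T3M-4 and -0.37 in BxPC-3 for SPRR2A, and 0.9 in T3M-4 and -1.29 in BxPC-3 for TGM1. With sgRpa3, the CFPAC-1 libraries with that label and T3M-4 experiment 2 gave 1.18 and -1.25 for SPRR1B, 0.42 and -1.49 for SPRR3, and 0.81 and -1.05 for IVL. SPRR2D was at 0.79 in BxPC-3 experiment 1 and -0.93 in T3M-4 experiment 2 with sgRpa3, and LYPD3 at 0.99 in those CFPAC-1 libraries and -0.18 in BxPC-3 experiment 1.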

How the results depend on the processing

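Of the 391 member values tested, 170 were called, and none of these changed direction under any alternative that was run. Calls were lost by 28 under median-of-ratios scaling, 22 without a filter, 22 with only the groups of the contrast, 7 with a pseudocount of 0.1, 3 with the SPRR1 and SPRR2 sums, 6 with the replicate number as a block, 5 of 9 against the DMSO library of the same vector alone, and 62 on leaving out some library. The counts that follow are of member values summed over all comparisons of a kind, so a member counts once in each comparison. Without a filter the values lower were 5 in place of 3 after RUVBL1 knockout and 3 in place of 1 after RUVBL2 knockout (2 under median-of-ratios scaling). Those higher after CDK1 or RPA3 knockout were 8 in place of 14 under median-of-ratios scaling and 8 with only the groups of the contrast. After CB-6644 with EV, those higher were 2 in place of 0 without a filter and 1 with only the groups of the contrast, where those lower were 3 in place of 6. At a mean of 5 TPM or more, which leaves fewer genes tested, the CHD4 and SERPINB5 count was 0 in place of 2 and that of CB-6644 in T84, A375, H1048 and RH30 was 1 in place of 7. For the other alternatives the cause was not tested.

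Leaving out each library in turn gave 23 to 27 member values lower (26 with all libraries) and 3 to 5 higher (4) after KLF5 knockout. It gave 2 to 3 lower and 5 to 6 higher after RUVBL1 knockout, and 1 lower and 4 to 6 higher after RUVBL2 knockout. After CDK1 or RPA3 knockout it gave 6 to 11 lower (10, and 6 without T3M-4 experiment 2 sgRpa3 replicate 2, where SPRR1A was at -0.62, SPRR2A at -0.43 and SPRR2D at -0.67) and 10 to 15 higher (14). After CHD4 or SERPINB5 knockout it gave 2 throughout. For CB-6644 it gave 4 to 7 lower (6) and 0 to 1 higher with EV (1 without T3M-4 EV CB-6644 replicate 3), 1 to 6 changed with the variants (3, with 1 without the T3M-4 dF109 DMSO library and 6 without the A62T one), 13 to 15 between variants and EV, and 6 to 8 in the other lines. It gave 0 to 1 between RUVBL2 and RUVBL1 knockout (1 without T3M-4 experiment 2 sgRUVBL2 replicate 2), 49 to 54 between KLF5 and CDK1 or RPA3 knockout (52) and 11 to 19 between experiments (16).

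With the replicate number as a block, 27 member values were lower and 4 higher after KLF5 knockout. There were 10 lower and 14 higher after CDK1 or RPA3 knockout, and 53 differed between KLF5 and CDK1 or RPA3 knockout. Outside the pairing given in the methods, the numbers are only shared names. No paired analysis was possible because the DMSO titles carry no replicate number for CB-6644 against DMSO in AsPC-1 and T3M-4. Comparisons with 2 libraries in a group, or 1 DMSO library a vector, rest on few libraries, and TPM give no depth from which a limit of detection could be set.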

Other observations

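Beyond the members, 5 of 20 tested further envelope precursors were lower and 2 higher in T3M-4 with EV and CB-6644, as were 4 and 2 of 8 tested envelope lipid genes, where 15.2% of all genes were lower and 19.1% higher. SPRR2E, a close relative of SPRR2A and subject to the same sharing of reads, went from 29.1 ± 12.3 TPM in the 3 DMSO libraries to 7.21 ± 2.56 TPM (n = 3, -1.83 ± 0.31, adjusted p = 0.00117 in limma). In SUIT-2, where LY6D fell with sgKLF5, 1 of 3 tested keratins also fell, KRT13 of internal stratified epithelia, from 4.88 ± 2.38 to 0.569 ± 0.513 TPM (n = 4 each, -1.87 ± 0.35, adjusted p = 0.0184).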
